A study of Mus musculus with 6 samples.

Results

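In TKPTS cells, an immortalised line of mouse kidney proximal tubule cells, 14 of 29595 listed genes were at or near zero with the empty plasmid and had reads in every library with extra Foxa1. They were chosen by their counts in the same 6 libraries. Each had at most 12 estimated counts in every pcDNA library and at least 24 in every Hnf3a library, and Nckap1l and names beginning with Col, Krt, Fox, Mmp, Adam or Itg were left out (only Nckap1l was removed by this). About 4 counts stood for 1 sequenced fragment, so the limits lie near 3 and 6 fragments, and 12 counts is used below as the detection floor. The Hnf3a group (n = 3) had received a pcDNA3.1 plasmid coding for Flag-tagged HNF3α, the protein of Foxa1, and the pcDNA group (n = 3) the Flag plasmid without that insert. Both groups were the same line, collected 24 h after transfection, and the sources mention no TGF-β1 for these libraries. A transient transfection usually reaches only some of the cells, so a higher level in a few cells and a small rise in many cannot be told apart. The sources do not say whether the 3 libraries of a group came from separate cultures, so the spread given here may be technical.

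FOXA1 is a forkhead transcription factor and is known as a pioneer factor, because it can bind its sites on DNA that is wrapped in nucleosomes and make them accessible to other regulators. In liver, lung, gut, prostate and breast it helps to start genes that are closed in other tissues. Genes that are silent in a kidney cell line and then detected with extra FOXA1 are therefore a natural class to list, although a transcript that appears in such cells need not be a direct target.

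The 14 genes made up 0.0473% of the genes listed. With the groups swapped (at most 12 counts in every Hnf3a library and at least 24 in every pcDNA library), the same limits found 1 gene, Gm48551, or 0.00338%. That gene overlaps a gene of the set on the same strand, and the pair is described together below. Total estimated counts lay between 60473818 and 71154667 per library, so 12 counts equalled 0.169 to 0.198 CPM (counts scaled to the library total). Values per library are given below in the order of replicates 1 to 3 of each group. Foxa1 itself stood at 1244, 1095 and 1062 CPM with its plasmid and at 35.3, 35.4 and 37.0 CPM without. Of 12 proximal tubule markers, 9 to 11 were above the floor in each library, Hnf4a was at 4 to 25 counts and Lrp2 at 17 to 53, while all 7 general epithelial markers were above it in all 6.

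Hnf3a replicates 2 and 3 stood apart from replicate 1. They held more of several fibroblast, macrophage and muscle transcripts. They lacked the pancreatic islet hormone transcripts Ins1, Ins2 and Gcg, which replicate 1 and the controls held. Col1a1, the main chain of fibrillar collagen, reached 33, 2694 and 3099 counts with Foxa1 and 0 to 16 without. Lyz2, a lysozyme of macrophages and neutrophils, had 0, 265 and 273, against 6 to 44. Acta1, the actin of skeletal muscle, had 17, 165 and 201 with Foxa1, against 20 to 39. Ins2, an insulin gene, went the other way, with 2226, 0 and 0 counts against 740 to 2058. Pdx1, of the same list as Ins2, did not, with 52, 41 and 60 against 35 to 62. Some genes of the first 2 classes were present in every library, with or without Foxa1. Fbln1, a fibulin of connective tissue, had 735, 742 and 718 counts with Foxa1, against 535 to 611. Csf1r, the macrophage growth factor receptor, had 762, 853 and 836, against 554 to 690. Such genes cannot show whether replicate 1 held part of the excess of replicates 2 and 3. The part of this difference in the values below was not tested, and counts with and without these libraries are given beside each other.

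**Figure D1:**
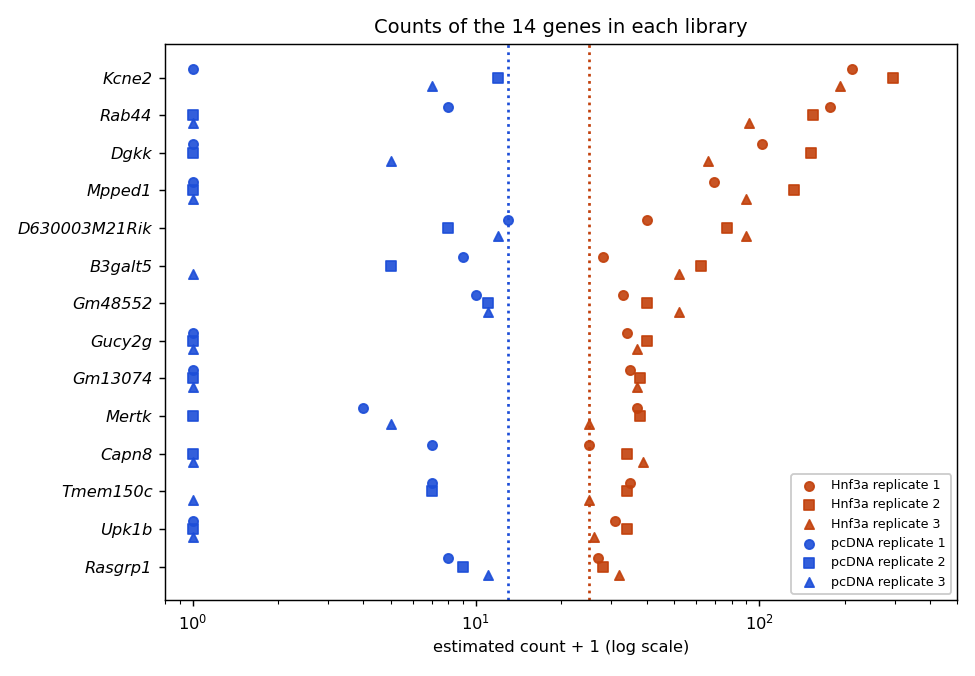
Estimated count plus 1 of each of the 14 genes (horizontal axis, log scale) in the 3 Hnf3a libraries (orange) and the 3 pcDNA libraries (blue), with one marker shape per replicate. The dotted lines mark the limits of 12 and 24 counts that chose the genes, so the gap between them is set by the choice, while Kcne2, Rab44, Dgkk and Mpped1 reach furthest beyond it.

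The members differ widely in how far they passed the limits. Mean levels in the Hnf3a group ran from 0.0654 FPKM (fragments scaled to transcript length and library size, a level per length) to 1.74 FPKM, with a median of 0.174, and 1 gene exceeded 1 FPKM. Among all listed genes these levels fell between the 36.4th and the 63.8th percentile of the Hnf3a group. In the pcDNA group 4 of the 14 were listed at 0 in all 3 libraries and 11 were at 0 in at least 1. Folds below are ratios of summed counts scaled to library totals, with a 95% interval for counting error in fragments only. Because these counts chose the genes, the folds are descriptions without a test.

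The promoter stretches printed here introduce the sequences behind the set, each 250 bases before an annotated RefSeq start in build GRCm38.p6, written 5′ to 3′ along the gene. The first lies before an internal start of Gucy2g (chr19:55217573-55217822, minus strand) and is shown because it holds the only classical core or close variant found near the starts of the set. The second lies before the outer start of Gucy2g (chr19:55241253-55241502, minus strand) and holds a match of the wider group only. The third lies before the outer start of Kcne2 (chr16:92292139-92292388, plus strand), the most abundant member, where no match was found. Capitals mark matches on either strand to 8 forkhead cores. These are the classical core TGTTTAC, its close variants TGTTTGC and then TATTTAC as well as TATTTGC, and a wider group of TGTTGAC followed by TGTTGGC with TATTGAC besides TATTGGC in addition.
Gucy2g internal: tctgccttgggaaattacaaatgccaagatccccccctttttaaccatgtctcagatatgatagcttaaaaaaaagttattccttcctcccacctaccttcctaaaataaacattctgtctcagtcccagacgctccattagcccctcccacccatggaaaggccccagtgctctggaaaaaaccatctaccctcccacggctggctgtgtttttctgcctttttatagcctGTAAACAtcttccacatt
Gucy2g outer: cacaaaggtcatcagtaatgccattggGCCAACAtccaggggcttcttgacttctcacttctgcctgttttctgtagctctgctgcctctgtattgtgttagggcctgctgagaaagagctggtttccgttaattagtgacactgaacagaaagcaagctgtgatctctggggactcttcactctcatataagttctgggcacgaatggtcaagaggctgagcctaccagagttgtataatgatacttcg
Kcne2 outer: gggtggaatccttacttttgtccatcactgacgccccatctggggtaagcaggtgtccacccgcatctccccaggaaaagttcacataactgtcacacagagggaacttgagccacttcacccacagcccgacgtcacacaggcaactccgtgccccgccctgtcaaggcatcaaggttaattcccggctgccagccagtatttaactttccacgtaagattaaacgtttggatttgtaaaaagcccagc

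Ion channels and cyclic nucleotide signalling are represented by Kcne2 and Gucy2g. Kcne2 (ENSMUSG00000039672, chr16:92292389-92298129, plus strand) codes for a single-pass accessory subunit of voltage-gated potassium channels, best known in acid-secreting stomach cells, where it pairs with KCNQ1. Its counts were 211, 295 and 192 with Foxa1 and 0, 11 and 6 without. The level was 1.74 ± 0.325 FPKM (SD, n = 3) with Foxa1, the highest of the set, and the ratio of the groups was 39.0 (interval 15.9 to 154). Gucy2g (ENSMUSG00000055523, chr19:55198099-55241236, minus strand) codes for a membrane receptor that makes cyclic GMP. It had 33, 39 and 36 counts with Foxa1 and 0 in all 3 pcDNA libraries, so its mean CPM was at least 2.85-fold higher than the floor per library. The 3 Hnf3a libraries lay close together for this gene, at 0.122 ± 0.00491 FPKM (SD, n = 3).

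Several members act on lipid second messengers and small GTPases. Dgkk (ENSMUSG00000062393, chrX:6779306-6948363, plus strand) codes for a diacylglycerol kinase, which removes the messenger diacylglycerol by phosphorylating it. It had 101, 151 and 65 counts with Foxa1 and 0, 0 and 4 in pcDNA, a ratio of 75.4, though with 1 control fragment the interval ran from 13.1 to 3004. Rasgrp1 (ENSMUSG00000027347, chr2:117279993-117343001, minus strand) codes for an exchange factor that diacylglycerol recruits to switch on RAS, known mainly from T cells. It was the member with the least contrast, at 26, 27 and 31 counts against 7, 8 and 10, a ratio of 3.20 (interval 1.299 to 10.1). Rab44 (ENSMUSG00000064147, chr17:29114145-29148980, plus strand) codes for an unusually long RAB GTPase known from blood-derived cells. Its counts were 177, 154 and 91 against 7, 0 and 0, or 0.367 ± 0.118 FPKM (SD, n = 3), with replicate 1 the highest and a ratio of 57.3 (interval 13.6 to 422). A processed pseudogene, Rpl35a-ps3, lies within the body of Rab44 on the opposite strand and shares 0 exonic bases with it.

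Cell surface and membrane proteins form a further group. Mertk (ENSMUSG00000014361, chr2:128698956-128802894, plus strand) codes for a receptor tyrosine kinase of the TAM family, which binds the ligands GAS6 and protein S and helps cells to take up dying neighbours. It had 36, 37 and 24 counts against 3, 0 and 4, and the ratio was 13.2 (interval 2.83 to 99.6). Upk1b (ENSMUSG00000049436, chr16:38773184-38800328, minus strand) codes for a tetraspanin of the urothelial plaques that line the bladder. Its counts were 30, 33 and 25 with Foxa1 and 0 in each pcDNA library, at least 2.32-fold above the floor per library. Tmem150c (ENSMUSG00000050640, chr5:100077872-100159808, minus strand) codes for a membrane protein linked to mechanically activated currents, and had 34, 33 and 24 counts against 6, 6 and 0, a ratio of 7.21 (interval 2.20 to 37.9). It shares 212 exonic bases, 3.82% of its own, with the antisense gene Tmem150cos, which had 0, 4 and 0 counts with Foxa1 and 0 in pcDNA.

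Among the enzymes, Mpped1 (ENSMUSG00000041708, chr15:83779467-83858484, plus strand), a predicted metallophosphoesterase, had 68, 131 and 89 counts with Foxa1 and 0 in every pcDNA library. This put its mean CPM at least 7.53-fold above the floor per library, the largest of the 4 members listed at 0 throughout the controls. B3galt5 (ENSMUSG00000074892, chr16:96235801-96319859, plus strand) codes for a galactosyltransferase that builds type 1 sugar chains on glycoproteins and glycolipids of the gut. It had 27, 61 and 51 counts against 8, 4 and 0, a ratio of 11.0 (interval 3.50 to 56.4), with replicate 1 the lowest. Capn8 (ENSMUSG00000038599, chr1:182565007-182632240, plus strand) codes for a calcium-dependent protease of mucus-secreting stomach cells. Its counts were 24, 33 and 38 against 6, 0 and 0, a ratio of 15.1 (interval 2.83 to 99.6).

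The other 3 members have no role that can be stated here. D630003M21Rik (ENSMUSG00000037813, chr2:158182533-158229222, minus strand) had 39, 76 and 89 counts against 12, 7 and 11, a ratio of 6.47 (interval 2.86 to 14.8), and sat on the limit in pcDNA replicate 1. Gm13074 (ENSMUSG00000085836, chr4:141347814-141350853, plus strand) is annotated as a long intergenic non-coding RNA. It had 34, 37 and 36 counts against 0 in all 3 controls, at least 2.82-fold above the floor per library. At 0.171 ± 0.00314 FPKM (SD, n = 3) it varied least of all members over the Hnf3a libraries, with a coefficient of variation of 3.07%. Gm48552 (ENSMUSG00000114004, chr10:81389005-81391267, plus strand) had 32, 39 and 51 counts against 9, 10 and 10, a ratio of 4.0 (interval 1.75 to 11.0).

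Gm48552 cannot be read apart from the single gene of the swapped rule. It lies inside Gm48551 (ENSMUSG00000113262, chr10:81384466-81391560) on the same strand and shares 705 of its 879 exonic bases (80.2%) with it. Gm48551 had 0 counts in every Hnf3a library and 55, 75 and 97 in the controls. Added together, the pair had 32, 39 and 51 counts with Foxa1 and 64, 85 and 107 in pcDNA, or 0.493, 0.548 and 0.779 CPM against 1.06, 1.29 and 1.64. The sum was thus lower with Foxa1 in all 3 libraries, opposite in direction to Gm48552 alone. Fragments from the shared exons cannot be told apart by gene, so a shift between the 2 annotated genes and a difference in how fragments were divided between them cannot be told apart either. Gm48551 in turn shares 972 exonic bases with Dohh, the hydroxylase that completes hypusine in eIF5A. Dohh had 3333 to 3800 counts with Foxa1 and 3216 to 3674 without, a log2 fold change of -0.03 (SE 0.05, edgeR adjusted p 0.862). Counted together, the pair left the set at 13 genes and the swapped rule at 0.

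**Figure D2:**
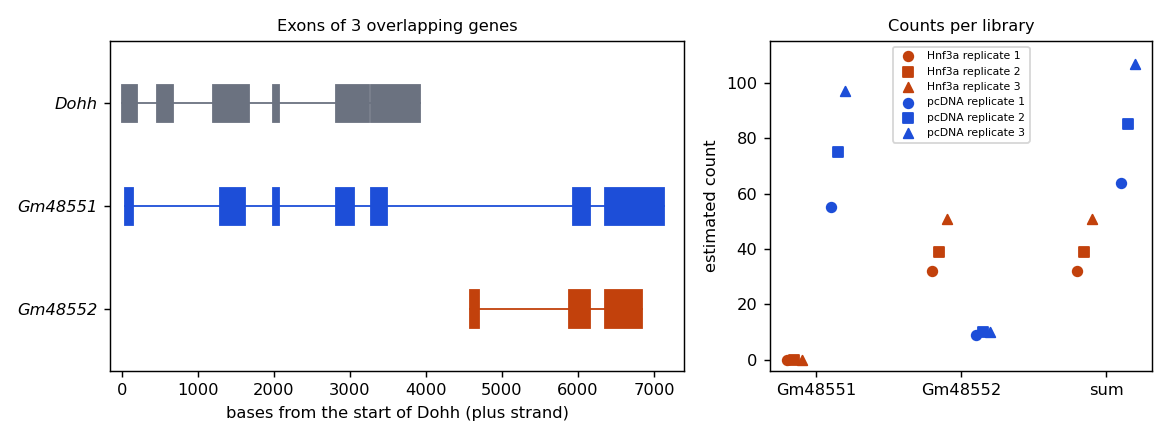
Left, exons (boxes) of Dohh, Gm48551 and Gm48552 by distance in bases from the start of Dohh, all on the plus strand. Right, estimated counts of Gm48551, Gm48552 and their sum in each library (Hnf3a orange, pcDNA blue), where the sum is 32 to 51 with Foxa1 and 64 to 107 without.

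To see how far membership depends on single libraries, the rule was applied with 1 library left out, and the genes chosen were then looked up in that library. The genes that also met the limit in the library left out are the same 14 each time, by construction, so the shares below are descriptions and support nothing. Without Hnf3a replicate 1, the other 5 libraries chose 78 genes, and 14 of them (17.9%) had at least 24 counts in replicate 1, 51 had at most 12 and the median was 8. Without Hnf3a replicate 2 the rule chose 17 genes, of which 82.4% also reached 24 counts in replicate 2, and without replicate 3 it chose 22, of which 63.6% did so in replicate 3. Leaving out pcDNA replicate 1, 2 or 3 gave 20, 22 and 19 genes. The swapped rule chose 1 to 8 genes when a library was left out, and 1 of them each time met the limit in the library left out.

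**Figure D3:**
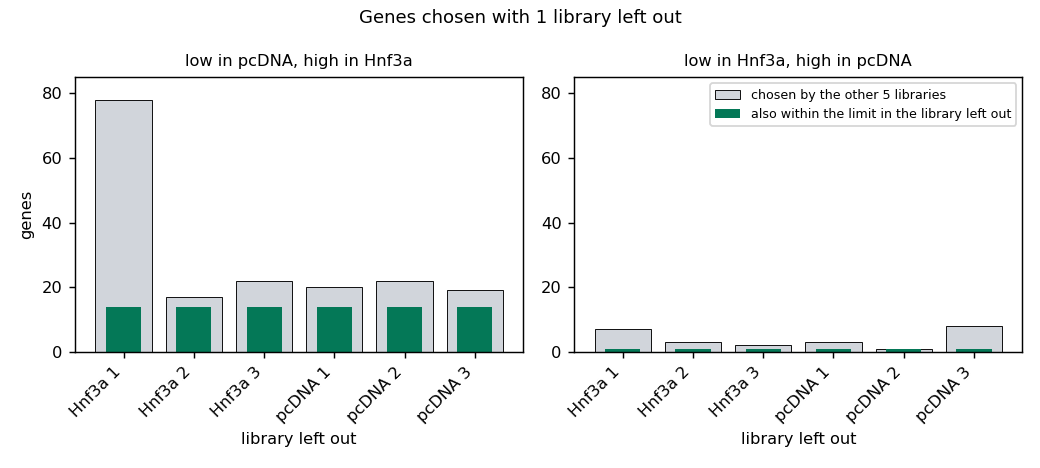
Number of genes chosen by 5 libraries (grey bars) and of those also within the limit in the library left out (green bars), for the rule (left) and with the groups swapped (right). Leaving out Hnf3a replicate 1 gives 78 genes, of which 14 reach 24 counts in it, while the other 5 bars of the left panel lie between 17 and 22.

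The genes that reached 24 counts in only part of the Hnf3a libraries show the same split. Of the 11419 genes silent in pcDNA (names left out as before), 181 reached 24 counts in 1 Hnf3a library, 75 in 2 and 14 in 3. Of the 75, 64 did so in replicates 2 and 3, 8 in replicates 1 and 2, and 3 in replicates 1 and 3. In the opposite direction, of 10830 genes silent in the Hnf3a group, 66 reached 24 counts in 1 pcDNA library, 9 in 2 and 1 in 3. Judged by Hnf3a replicate 1 alone, 56 of the 11419 genes silent in pcDNA reached 24 counts (0.49%). Of the 10830 genes silent in the Hnf3a group, 30, 35 and 22 did so in pcDNA replicates 1, 2 and 3 (0.277%, 0.323% and 0.203%). A further 29 is an unlike count, of genes with 24 counts in all 3 pcDNA libraries and at most 12 in Hnf3a replicate 1.

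Sums over the members and over marker lists are set side by side, although the rule required 24 counts in Hnf3a replicate 1, so that genes confined to replicates 2 and 3 could not enter. The members' summed level was 13.4, 16.1 and 12.9 CPM with Foxa1 and 0.959, 0.699 and 0.689 CPM without. A list of 14 fibroblast genes summed to 22.5, 89.1 and 105 CPM against 16.9 to 17.7, with 6, 14 and 13 of the 14 above the floor in Hnf3a libraries 1, 2 and 3, in that order, and 3 to 5 in pcDNA. For 18 macrophage genes the sums were 72.4, 88.4 and 91.8 CPM against 95.3 to 103, with 6, 17 and 18 above the floor against 7 or 8. Cd14 had the most counts of that list in every library, so it weighs most in the sum. It had 2763, 3244 and 2885 counts against 4186 to 4953. Ctss, of the same list, had 74, 334 and 358 against 61 to 89. In Hnf3a replicate 1 the members reached 872 counts in all, part of which the limit of 24 counts per gene guaranteed. Genes of the 2 marker lists ranged widely in that library. C1qa and Lyz2 were at 0, Col1a1 at 33 and Col3a1 at 7, but Fbln1 was at 735, Tagln at 551, Csf1r at 762 and Cd68 at 1021. By gene, 3 of the 14 were highest in replicate 1, 5 in replicate 2 and 6 in replicate 3. The ratio of replicate 1 to the mean of replicates 2 and 3 had a median of 0.932 over the members (range 0.495 to 1.53) and 0.959 over 3782 genes of the same count range. D630003M21Rik and B3galt5 had the lowest ratios, 0.495 and 0.508, and Rab44 the highest, 1.53.

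**Figure D4:**
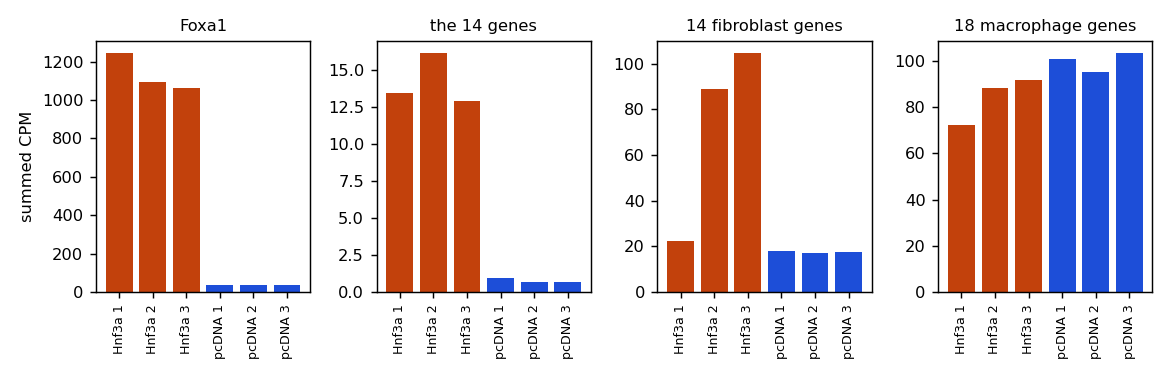
Summed CPM in each library (linear axes from 0, a separate scale per panel) for Foxa1, the 14 genes, 14 fibroblast genes and 18 macrophage genes. Among the macrophage genes Cd14 has the most counts in every library. The 14 genes sum to 12.9 to 16.1 CPM in the 3 Hnf3a libraries. The fibroblast genes reach 22.5 CPM in Hnf3a replicate 1 and 89.1 and 105 CPM in replicates 2 and 3. Each of the 14 genes had to reach the upper limit of the rule in every Hnf3a library, and the fibroblast genes did not. The level of the 14 genes in replicate 1 is therefore partly set by the choice.

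Spread within the Hnf3a group is given as a description. The rule required its upper limit in every Hnf3a library, which left out genes with a low library. The genes of the same count range did not have to meet that limit, so nothing is read from the likeness of the medians. The coefficient of variation of CPM ran from 3.07% for Gm13074 to 37.9% for D630003M21Rik, with a median of 21.6%, and the median was 20.04% over the 3782 genes of the same count range. In the fit over all genes with edgeR's quasi-likelihood test, the filter on low counts kept all 14 members, and 12 of them were called higher at an adjusted p under 0.05, where 1.04% of the 17824 genes tested were called higher. The rule used these same counts, so nothing is read from that share. Rasgrp1 and Tmem150c were the members not called.

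Values close to the limits are given so that the edge of the set can be judged. Just inside, Capn8, Mertk and Tmem150c had 24 counts in their lowest Hnf3a library, and D630003M21Rik had 12 in its highest pcDNA library. Just outside, R3hdml had 24, 23 and 24 counts against 10, 0 and 9, and Fcgrt, the neonatal Fc receptor, had 30, 35 and 22 against 12, 4 and 11. On the control side, Bend5 had 42, 63 and 27 against 0, 10 and 13, and Oas1d, of the antiviral oligoadenylate synthetase family, had 26, 37 and 28 against 8, 13 and 0. The step from Tmem150c to R3hdml is less than 1 fragment, which is within counting error.

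Several features that the rule did not use can be set beside other genes. Of the 14, 13 are annotated as protein coding (92.9%), compared with 59.0% of all listed genes, 77.4% of the genes tested and 27.5% of the 10252 genes at or under 12 counts in all 6 libraries. The median exonic length was 4316 bases against 2496, 3572 and 964 bases in those sets. Counts rise with transcript length, so a limit in counts is not neutral to length. Of the 13 coding members, 6 carry the Gene Ontology term for the plasma membrane in the deposited table (Kcne2, Rab44, Dgkk, Gucy2g, Rasgrp1 and Tmem150c), or 46.2%, against 21.2%, 19.3% and 27.9% of coding genes. The members lie on 10 chromosomes, with 3 on chromosome 16 and 3 on chromosome 2. The closest pair is not close, since Kcne2 and B3galt5 lie 3937672 bases apart.

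Relatives and partners of the members were looked up to see whether whole families appeared. The list held 51 genes, of which 44 were in the table and 29 passed the filter. None was called by edgeR at an adjusted p under 0.05 (0 of 29, with 2 at an unadjusted p under 0.05), where 3.17% of all genes tested were called. DESeq2 called 1 of the 29, Capn5, where it called 4.91% of all genes with an adjusted p. The median log2 fold change of the 29 was 0.02, against 0.000845 over all genes tested. Axl, the other main TAM receptor, stood at 36.2 ± 2.22 FPKM with Foxa1 and 37.4 ± 1.04 without (SD, n = 3 each), and Tyro3 at 2.99 ± 0.229 and 2.84 ± 0.0841. Mertk, at 0.0973 ± 0.0207 FPKM, therefore remained a minor TAM transcript per length. Of its ligands, Gas6 was at 0.31 ± 0.0966 FPKM with Foxa1 and 0.211 ± 0.0295 without (edgeR adjusted p 0.558). Pros1, the gene of protein S, was at 1.03 ± 0.0997 FPKM with Foxa1 and 0.93 ± 0.207 without (edgeR adjusted p 0.817).

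Partners in channels and plaques were low in both groups. Kcnq1, a channel partner of KCNE2, had 15, 0 and 13 counts with Foxa1 and 4, 10 and 21 without. Kcnh2, another channel partner, was higher than Kcnq1, at 45, 107 and 70 against 41, 55 and 82. Upk1a, the paralogue of Upk1b, had 45, 42 and 49 against 51, 58 and 41. The partner uroplakins Upk2 and Upk3a had 12, 6 and 0, and 0, 4 and 0 counts with Foxa1, and 0 in every control. Upk3b, a further partner, had 59, 28 and 60 against 26, 46 and 43. Capn9, which pairs with CAPN8 in the stomach, had 0, 9 and 0 against 0, 0 and 0, whereas the ubiquitous Capn2, which lies 47399 bases upstream of Capn8, stood at 23.4 ± 1.59 FPKM with Foxa1 and 22.6 ± 0.446 without. Among 9 other diacylglycerol kinases in the table, Dgkb and Dgkg stayed at or under the floor in all 6 libraries. Dgka had a log2 fold change of 0.24 (SE 0.10, edgeR adjusted p 0.264). Rasgrp2 and Rasgrp4 had fitted log2 fold changes of 0.81 (SE 0.50, edgeR adjusted p 0.554) and 1.10 (SE 0.54, edgeR adjusted p 0.418) and, like Rasgrp1, did not pass the test. Rasgrp3 went the other way, with 9, 4 and 0 counts with Foxa1 and 10, 13 and 7 without, and was too low to be tested.

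Genes next to the members were not chosen by the rule, so they could be tested. Within 50 kb of the 14 genes lay 43 other genes, leaving Gm48551 aside, and 28 of them were tested. One was called, or 3.57% of the 28, against 3.17% of all genes tested, and the median log2 fold change was 0.01. The gene called was Sh3bgr, which codes for a small protein of heart and skeletal muscle and lies 6866 bases upstream of B3galt5. It had 25, 19 and 37 counts with Foxa1 and 6, 4 and 2 without, with no overlap, and its log2 fold change was 2.64 (SE 0.64, edgeR adjusted p 0.0417). The call was lost in 10 of 13 other fits, among them each of the 6 fits without 1 library (adjusted p 0.0934 to 0.21). Beyond it, Lca5l, 43530 bases upstream of B3galt5 and named here after its values were seen, had 13, 28 and 17 counts against 4, 8 and 4 (log2 fold change 1.74, SE 0.64, edgeR adjusted p 0.219). Close neighbours at high levels moved little. Smim11, 3157 bases downstream of Kcne2, had a log2 fold change of 0.01 (SE 0.13, edgeR adjusted p 0.987). Cdkn1a, the p21 cell cycle inhibitor upstream of Rab44, had one of 0.15 (SE 0.04, edgeR adjusted p 0.0578).

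**Figure D5:**
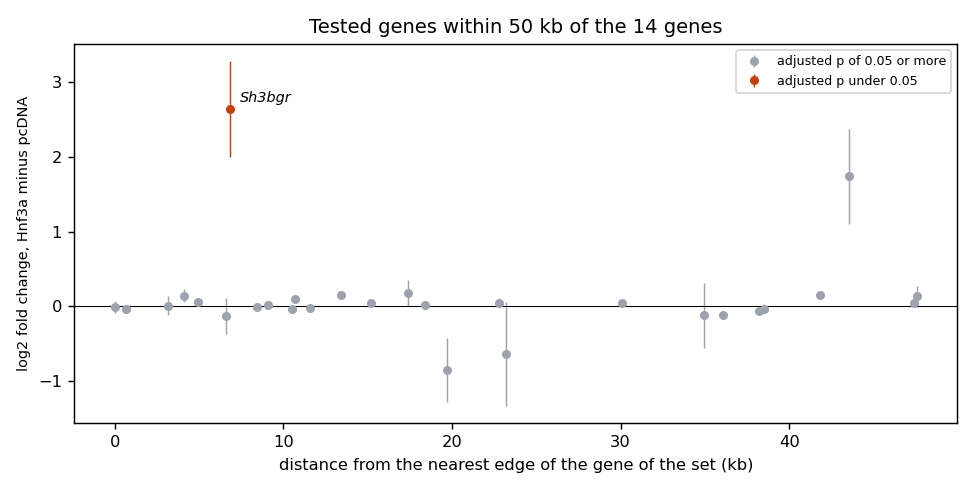
Log2 fold change (Hnf3a minus pcDNA, bars are standard errors of the edgeR fit) of the 28 tested genes within 50 kb of the 14 genes, by distance in kb from the gene of the set. Sh3bgr, orange and named, is the one with an adjusted p under 0.05.

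Widening the distance to 200 kb took in 153 genes, of which 92 were tested and 4 called (4.35%). Fbln7, a fibulin of the extracellular matrix 60087 bases downstream of Mertk, had 10, 23 and 22 counts with Foxa1 and 0, 0 and 3 without (log2 fold change 3.95, SE 0.99, edgeR adjusted p 0.0479). Its counts were lowest in Hnf3a replicate 1, as those of Col1a1 were. Lbp, the lipopolysaccharide-binding protein 77271 bases upstream of D630003M21Rik, fell by 0.36 on the log2 scale (SE 0.05, edgeR adjusted p 0.00175).

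Forkhead motifs near the starts were then counted in RefSeq promoter windows of 300 bases (250 before and 50 after a start). Of the 14 genes, 11 matched a window, with 18 windows in all, and Rab44, Gm13074 and Upk1b did not. The classical forkhead core or one of its 3 close variants listed above was present, on either strand, in 1 of the 18 windows, or 5.56%, compared with 13.5% of all 32851 windows, 9.43% of those of the genes tested and 15.2% of those of genes silent in all 6 libraries. The match was the GTAAACA printed in capitals above, which starts 18 bases before the internal start of Gucy2g and reads TGTTTAC on the other strand. Some genes have several windows, so windows are not independent units. By gene, the share was 1 of 11 (9.09%). It was 15.1% of all genes with a window, 11.2% of those tested and 16.7% of those silent in all 6 libraries. TGTTTAC on its own was found in 5.56% of the members' windows and 3.65% of all windows. With the wider set of 8 cores, 2 of 18 windows (11.1%) held a match against 21.2% of all windows, and both were those of Gucy2g. The members' windows had a median GC content of 57.5% and a median of 12.5 CpG dinucleotides, against 52.7% and 7 over all windows and 60.0% and 19 over those of the genes tested, so they lay between these sets. More distant sites were not searched.

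None of the 14 genes was on any of 18 marker lists, which cover kidney tubule, collecting duct, blood, stromal, nerve, muscle and germ cells and 4 tissues where FOXA factors are known to act. Of 43 genes of liver, lung, gut and pancreas, and hormone-responsive tissues found in the table, 18 were silent in pcDNA, and 0 of these 18 reached 24 counts in all 3 Hnf3a libraries, as 0.123% of the 11419 genes silent in pcDNA did. Of the 24 of them tested, edgeR called 0 higher and 1 lower, where it called 1.04% of all genes tested higher and 3.17% in either direction. Over 12 lists of other cell types (102 genes in the table, 60 tested), edgeR called 7, or 11.7% of those tested, against 3.17% of all genes tested. These calls were 1 higher and 2 lower with Foxa1 in the collecting duct list and 1 higher and 1 lower in the endothelial list. The macrophage and neutrophil lists had 1 lower each. Among the genes tested, edgeR called 0 of 10 fibroblast genes and 1 of 11 macrophage genes. Their median log2 fold changes were nevertheless 1.81 and 1.45, against 0.000845 over all genes tested, so the few calls do not mean equal levels.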

How the data were processed

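RNA from 3 Hnf3a and 3 pcDNA libraries of TKPTS cells was sequenced from both ends (150 bases) after poly(A) selection, with strand marking and molecular identifiers. The authors deposited an estimated count and an FPKM value per gene and library. Their processing notes list cutadapt 1.9, HISAT2 2.0.4, UMI-tools, StringTie 1.3.4d, DESeq2, edgeR and build mm10, without roles, and the counter and the use of strand are not given in the sources used here. In each library more genes sat at 4 counts (1148 to 1203) than at 3 or 5, so 4 counts were taken as 1 fragment. Intervals and floors cover counting error only.

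The members and all lists were chosen with earlier results of these data known. The list of relatives was written after the members were seen, and relatives were named with their values in view. Counts of members were given for every member, with the swapped set, the genes nearest to the limits, and neighbours past the threshold. Groups and replicate numbers came from the sample labels, and 0 value columns lacked a labelled sample.

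Group differences were fitted with edgeR 4.0.16 in R 4.3.3 (filterByExpr, TMM, robust quasi-likelihood test, two-sided, Benjamini-Hochberg over all genes tested, threshold 0.05, no covariate). With 3 against 3 libraries an exact permutation test of 1 gene cannot go below 0.1. Counts were whole and needed no rounding. The procedure was tested on simulated data. Alternatives were other limits, filters and scalings, limma 3.58.1 with trend on log2(FPKM + 0.1) and log2(FPKM + 1), DESeq2 1.42.0, counts divided by 4, a replicate block, and each library left out. The count of the overlapping pair together, and the rule without Hnf3a replicates 2 and 3, were added after seeing the data.

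Gene coordinates were those of the table (GRCm38). Exons, overlaps and gene types came from GENCODE vM21, and promoter windows from RefSeq (GRCm38.p6). Of the 18 windows of members, 15 had bases after the start that were found in the gene's GENCODE transcripts in the printed direction, and 0 in the other. One gene is not reported here.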

Additional observations from a re-analysis of the deposited data

How the results depend on the processing

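The number of genes chosen moved with the limits. It was 5 at limits of 8 and 32, 8 at 16 and 32, 4 at 12 and 48 and 13 on counts scaled to the mean library total. Limits of 8 and 32 and of 12 and 48 are stricter than the rule, so their genes were among the 14 by construction. The genes chosen at 16 and 32 and on scaled counts were also all among the 14. Leaving out 1 library gave 17 to 78 genes, the highest without Hnf3a replicate 1, and judging by Hnf3a replicate 1 without replicates 2 and 3 gave 56. The swapped rule gave 2 genes at 16 and 32, 1 at 8 and 32 and at 12 and 48, 1 to 8 with 1 library left out (8 without pcDNA replicate 3 and 7 without Hnf3a replicate 1), 29 without Hnf3a replicates 2 and 3, and 0 with Gm48551 and Gm48552 counted together.

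Members called higher numbered 1 of 1 tested under a filter of 1 FPKM in 3 libraries, 5 of 5 with counts divided by 4, 7 with limma on log2(FPKM + 1), and 8 to 10 with 1 library left out, against 12. Calls over all genes numbered 236 and 231 with limma at pseudocounts of 0.1 and 1, and 263 to 643 with 1 library left out, against 565. Among the latter they were fewest without Hnf3a replicate 2 (64 higher and 199 lower, against 186 and 379), and numbered 286, 267 and 349 without pcDNA replicates 1, 2 and 3. Calls among neighbours within 50 kb numbered 2 with DESeq2 and with total-count scaling, 0 with all genes of at least 1 count, with limma at either pseudocount and with the replicate block, and 0 to 1 with 1 library left out, while 200 kb gave 4. The wider motif set was found in 2 windows. The causes of these moves were not tested, beyond the fewer genes or libraries that a setting keeps.

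Same-numbered libraries did not deviate together (r -0.0411, -0.0102 and 0.00998), and Hnf3a replicates 1 and 2 did not correlate best with their own number, so the numbers do not pair them. With the replicate block, 463 genes and 9 members were called. None of the 14 members, Foxa1, Nckap1l, Sh3bgr or Gm48551 changed direction in any fit, and the other named genes were not run under the alternatives. For the members and Gm48551 the limits of the rule set the direction, so nothing is read from this. The same counts chose the members, so their calls kept or lost below are descriptions. Capn8 and Mertk lost their call in 7 of 13 other fits each, B3galt5 and Gm48552 in 6, D630003M21Rik in 2 of 14 and Dgkk in 1 of 14, and Tmem150c gained one in 1 of 13. Depth limits the members near the limit, where 24 counts stand for about 6 fragments.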

Other observations

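Oas1d and Oas1f, both of the oligoadenylate synthetase family that senses double-stranded RNA, sat just outside the limits together. Oas1f had 20, 21 and 29 counts with Foxa1 and 0, 10 and 9 without. Myo1a, a brush border myosin of the gut and kidney, was equally near, with 22, 20 and 27 counts against 0, 0 and 8. Rac2, a GTPase of blood cells, had 21, 54 and 36 against 0, 11 and 3, and Myh11, a smooth muscle myosin, had 33, 24 and 21 against 0, 8 and 2. These genes were chosen for lying near the limits, so their contrast is a description without a test.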
